A study of Mus musculus with 12 samples.

Results

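The chemokine ligands and chemokine receptors of mouse back skin were followed through 3 weeks of topical treatment with 2 hair growth preparations. Members were chosen by name: every array probe whose gene name begins with Ccl, Cxcl, Ccr or Cxcr followed by a digit. This gave 63 probes for 50 genes out of 41174 probes carrying 27373 gene names. Of these, 41 probes belong to 33 ligand genes and 22 probes to 17 receptor genes. The rule itself uses names and no expression value. Each probe is a short printed DNA strand that captures the labelled copy of its transcript, and the brightness of its spot is the measurement.

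Male C57BL/6J mice, 8 weeks old, had the back shaved and from the next day received 200 µL of a preparation on that skin every day. The MXD group received 3% minoxidil, a vasodilator sold as a hair growth drug. The N-CE group received 10% cell extract of the cactus Notocactus ottonis. The vehicle control, VC, received only the shared solvent of propylene glycol, ethanol and water at 5:3:2. Whole back skin was taken at 1W, 2W and 3W (weeks), and RNA of 6 mice was pooled for each group and week. Each treated pool met the VC pool of its week on 2 two-colour arrays with the dyes exchanged, which gives 12 arrays and 6 comparisons of 1 pool with 1 pool. The 2 arrays of a comparison hold the same RNA, so they are 1 replicate, and the SD given below (n = 2 arrays) is technical and says nothing of the spread between mice. MXD and N-CE share the VC pool and the array slide of a week, and week and slide cannot be told apart.

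Chemokines are small secreted proteins that form gradients along which leukocytes move, and their receptors are G-protein-coupled receptors on the leukocyte surface. CXC ligands with an ELR motif (Cxcl1, Cxcl2, Cxcl3, Cxcl5) draw neutrophils through Cxcr2, and the interferon-induced Cxcl9 and Cxcl10 draw activated T cells and NK cells through Cxcr3. Many inflammatory CC ligands (Ccl2, Ccl5, Ccl7, Ccl12) draw monocytes, T cells and other leukocytes through receptors such as Ccr2 and Ccr1, and the eotaxins Ccl11 and Ccl24 draw eosinophils through Ccr3. In skin, keratinocytes, fibroblasts and resident immune cells all make such ligands, and the number of immune cells around the follicle changes through the hair cycle.

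Of the ELR ligands on chromosome 5, Cxcl5, Cxcl3 and Cxcl1 were called higher in MXD at 1W, and the upstream sequence of Cxcl1, Cxcl3 and their neighbour Cxcl2 is therefore shown. From RefSeq, 49 of the 50 genes were matched and 36 had a start site sequence (40 windows of 250 bases before to 50 after the start, build GRCm38.p6). The stretches below are the 200 bases before the start of Cxcl1 at chr5:90891045-90891244, Cxcl2 at chr5:90903699-90903898 and Cxcl3 at chr5:90785901-90786100, all on the plus strand. Cxcl14 at chr13:56296552-56296751, minus strand, is shown beside them as a skin ligand that was called in other comparisons. Capitals mark overlapping matches on both strands to the NF-kappaB consensus in Cxcl1, Cxcl2 and Cxcl3, and a match to the core of the interferon-stimulated response element (GAAA, any 2 bases, then GAAA) in Cxcl14.
Cxcl1: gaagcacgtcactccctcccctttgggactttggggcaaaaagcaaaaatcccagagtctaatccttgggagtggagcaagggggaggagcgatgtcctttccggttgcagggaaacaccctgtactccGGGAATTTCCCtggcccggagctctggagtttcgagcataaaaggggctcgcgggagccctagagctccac
Cxcl2: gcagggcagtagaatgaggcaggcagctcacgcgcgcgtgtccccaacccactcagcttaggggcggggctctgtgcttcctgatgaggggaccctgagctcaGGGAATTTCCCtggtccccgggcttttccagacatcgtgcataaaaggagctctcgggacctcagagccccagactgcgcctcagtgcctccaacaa
Cxcl3: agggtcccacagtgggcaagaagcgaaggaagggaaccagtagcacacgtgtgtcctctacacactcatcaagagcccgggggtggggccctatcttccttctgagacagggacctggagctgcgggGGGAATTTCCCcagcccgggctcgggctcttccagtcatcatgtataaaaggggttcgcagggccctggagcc
Cxcl14: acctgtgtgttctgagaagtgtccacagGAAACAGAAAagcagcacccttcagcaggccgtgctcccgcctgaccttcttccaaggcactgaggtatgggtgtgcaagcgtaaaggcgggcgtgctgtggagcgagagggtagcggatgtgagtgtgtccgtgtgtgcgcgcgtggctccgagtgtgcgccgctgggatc

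The same 11 letters stand in the 3 ELR genes printed, beginning at -71 from the start site in Cxcl1, -97 in Cxcl2 and -73 in Cxcl3. The window of Cxcl15, also in the ELR group, had no match to the consensus, and Cxcl5 is named only. In the full windows, searched on both strands, the NF-kappaB consensus occurred in 8 of 26 ligand windows (30.8%) and 3 of 14 receptor windows (21.4%), beside 8.49% of 32544 windows of all genes. The interferon response core occurred in 3 of 26 ligand windows, in 0 of 14 receptor windows and in 3.45% of all windows. Cxcl14 had no match to the NF-kappaB consensus in its window. A match is a property of the letters and was not measured as binding.

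Of the 63 probes, 32 were well above background in all 24 channels and 10 in none. Counted by the brightest probe, which stands for a gene throughout, 27 genes were measured in every channel and 8 in none. After outlier spots were left out, every member probe kept a value on every array. A probe was called higher or lower when each array of the pair gave the same sign with a P below 0.01 from the scanner software, and when the geometric mean fold exceeded 1.5 or fell short of 0.75, the P and fold limits that the study used. That P describes the spot and not the mice. By this rule 23 probes of 18 genes were called in at least 1 comparison, while 40 probes, those of 32 genes, were called in none. The share of all probes called in at least 1 comparison was not taken, so these counts do not set the members apart. The VC pool of a week was also read on the arrays of both treatments, and the reading with N-CE minus that with MXD, over the members above background, had a median of 0.04 (range -0.12 to 0.59) at 1W, -0.10 (-0.51 to 0.74) at 2W and -0.08 (-0.41 to 1.02) at 3W on the log2 scale. The folds of the measured genes are laid out by role in the map of log2 folds.

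**Figure D1:**
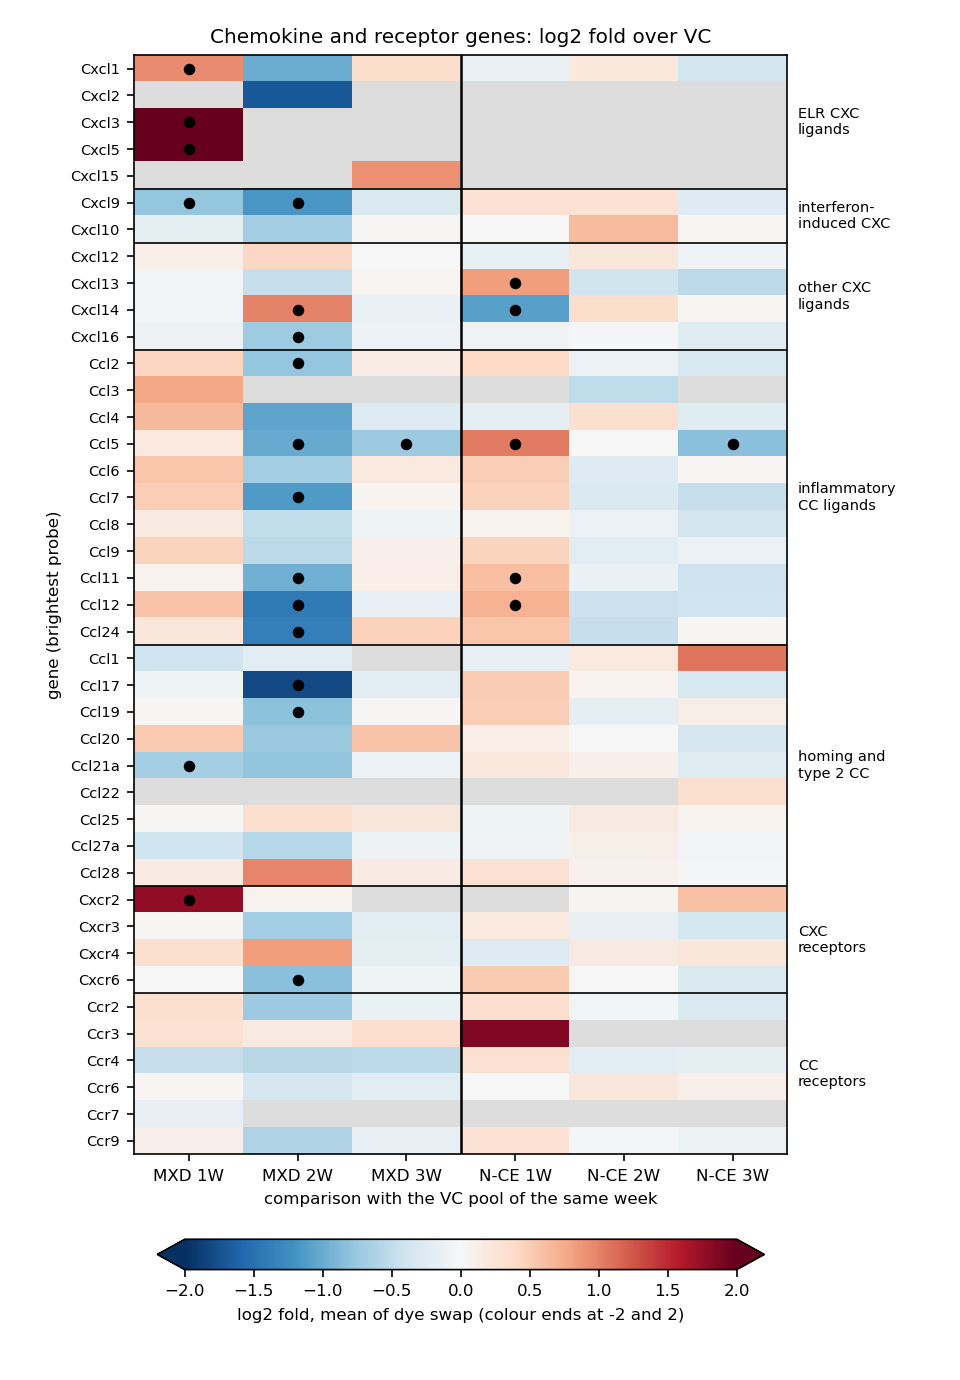
Log2 fold over the VC pool of the same week (colour, mean of the dye swap) for the reported chemokine and receptor genes measured in at least 1 comparison, one row per gene grouped by role and one column per comparison. Black dots mark called genes and grey cells mark genes not well above background in either group. The MXD 2W column is mostly blue, with 22 of 26 measured ligand genes below 0, and the N-CE 1W column is mostly red, with 16 of 25 above 0.

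At 1W the ligands that attract neutrophils were up-regulated in the MXD pool. Cxcl5, Cxcl3 and Cxcl1 and the receptor Cxcr2 were called higher, and Cxcl9 and Ccl21a were called lower. These 4 probes higher and 2 lower compare with 0.685% and 0.765% of all probes called in these directions (6.35% and 3.17% of the 63). The ELR ligands and Cxcr2 passed the rule in no other comparison.

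The Cxcl5 probe A_52_P295432 lies at chr5:91190205-91190264 of mm9, the build of the array. Its processed signal was 392 and 412 on the 2 arrays in the MXD pool and 4.98 and 4.08 in the VC pool. The log2 fold was 6.30 and 6.66 (mean 6.48 ± 0.25 SD, n = 2 arrays). As VC was not well above background, the supported statement is that Cxcl5 was at least 4.93-fold higher, taking for VC the lowest signal of a probe above background on each array after normalization between arrays. In the other 5 comparisons Cxcl5 was not well above background in either pool, so the transcript was measured only in the MXD pool of 1W.

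Cxcl3 followed the same pattern at a lower signal. It read 63.7 and 59.8 in MXD and 4.81 and 3.90 in VC, a log2 fold of 3.83 ± 0.15, with VC again not well above background and MXD at least 1.5-fold higher. Cxcl1, the only ELR ligand well above background in that VC pool, read 114 and 66.0 in MXD against 54.0 and 37.7 in VC, a log2 fold of 0.94 ± 0.19. Cxcr2, the neutrophil receptor of these ligands, read 40.0 and 50.2 in MXD against 10.2 and 16.7 in VC, which was not well above background, and was at least 1.26-fold higher. A second Cxcr2 probe was not well above background in either pool. Cxcl2 was not well above background in either pool at 1W. With another background correction (normexp, then loess), Cxcl5 and Cxcl3 had log2 folds of 2.42 and 0.65 and stayed past the fold limit, whereas Cxcl1 and Cxcr2 had 0.40 and 0.36 and did not.

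**Figure D2:**
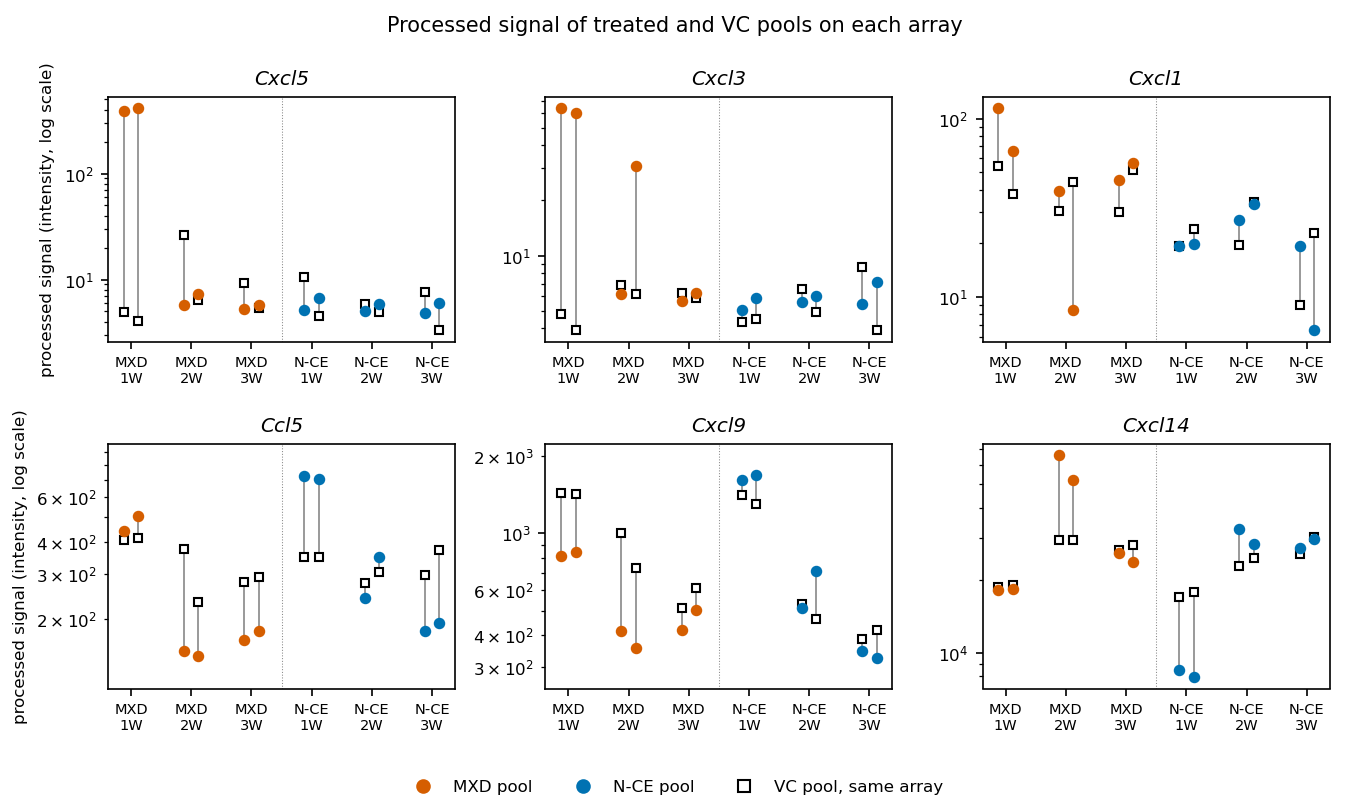
Processed signal intensity (log scale) of 6 genes on each of the 12 arrays, with the treated pool as a filled circle joined to the VC pool of the same array as an open square. For Cxcl5 only the MXD 1W circles, at 392 and 412, lie well above background, while the Ccl5 circles lie above their squares in N-CE 1W and below them in MXD 2W, MXD 3W and N-CE 3W, and Cxcl14 moves at MXD 2W and N-CE 1W.

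Markers of neutrophils moved at the same time and in the same pool. Of 15 listed neutrophil genes on the array, 13 were measured in MXD 1W, 11 lay above 0, 9 were called higher and none lower, with a median log2 fold of 1.75 (0.42 after normexp and loess). S100a8 and S100a9, subunits of calprotectin, had log2 folds of 2.89 ± 0.00 and 2.51 ± 0.14. The summed signal of the list was 40230 and 51167 in MXD and 16090 and 17168 in VC, and Ngp and Trem1 were not above background in either. The part of neutrophil number in the Cxcl5, Cxcl3, Cxcl1 and Cxcr2 values was not tested. In pooled whole skin, a changed number of cells of a type and a changed amount of RNA per cell cannot be told apart.

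The 2 ligands called lower at 1W have other functions. Cxcl9, an interferon-gamma target, read 819 and 848 in MXD against 1436 and 1427 in VC (log2 fold -0.78 ± 0.04). Ccl21a, which guides dendritic cells and naive T cells through Ccr7, read 6749 and 5265 against 10308 and 8805 (log2 fold -0.68 ± 0.09). On both arrays the MXD value was below VC for each gene. Cxcl10, the other measured interferon-induced ligand, had a log2 fold of -0.17 and was not called.

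The 11 inflammatory CC ligands, none of them called, all had a log2 fold above 0 in MXD 1W (median 0.44, range 0.07 to 0.78), where 48.3% of all measured probes lay above 0 and their median was -0.01. Ccl3 and Ccl4, made by activated macrophages and lymphocytes, were the highest at 0.78 ± 0.49 and 0.65 ± 0.22. Over all 28 measured ligand genes the median was 0.17, and over 11 measured receptor genes 0.11. The monocyte and macrophage list had 12 of 15 measured genes above 0, a median of 0.26 and 1 gene called higher.

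At 2W most members lay below VC in the MXD pool. Of the 63 probes, 15 were called lower (23.8%, where 5.82% of all probes were) and 1 was called higher (1.59%, where 4.04% of all probes were). Of the 15, 14 were ligand probes of 10 genes and 1 was the receptor Cxcr6. The median log2 fold was -0.76 over 26 measured ligand genes and -0.54 over 10 measured receptor genes, beside 0.05 over all 28664 measured probes.

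Ccl17, made by dendritic cells and keratinocytes and a ligand of Ccr4, was the lowest. It read 108 and 58.8 in MXD against 318 and 245 in VC, a log2 fold of -1.81 ± 0.36. Ccl12, a monocyte attractant, read 361 and 281 against 955 and 750, a log2 fold of -1.41 ± 0.01. Both pools were well above background on both arrays for each gene, and no MXD value reached a VC value.

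The eotaxin Ccl24 was called lower by both of its probes, with log2 folds of -1.38 ± 0.30 and -1.37 ± 0.17. The brighter probe read 1375 and 1026 in MXD against 3262 and 2879 in VC. Ccl7, which attracts monocytes, also fell on both probes, by 1.14 ± 0.14 and 1.13 ± 0.16 on the log2 scale. Ccl11, another eotaxin, fell by 0.96 ± 0.10, and Ccl2, the main monocyte attractant, by 0.78 ± 0.13. Thus 4 of the 6 genes of the Ccl2 cluster (Ccl2, Ccl7, Ccl11, Ccl12, Ccl8 and Ccl1, chr11:81850650-81990395 of mm9) were called lower, and all 6 had a log2 fold below 0.

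Ccl5, which attracts T cells and monocytes, was called lower on one of its 2 probes, with 150 and 143 in MXD against 374 and 234 in VC (log2 fold -1.01 ± 0.43). The other Ccl5 probe was not above background on the first array and had a log2 fold of -1.14 on the second. All 10 measured inflammatory CC ligands had a log2 fold below 0 (median -0.99, range -1.41 to -0.49), and 6 of them were called. This compares with 45.5% of all measured probes below 0.

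Ligands outside that group fell as well. Cxcl9 fell by 1.16 ± 0.16, from 1001 and 731 in VC to 414 and 356 in MXD, and was the only gene of the set called lower in MXD at both 1W and 2W. Cxcl16, the ligand of Cxcr6, fell by 0.90 ± 0.28 and 0.72 ± 0.11 on its 2 probes. Cxcr6, carried by subsets of T cells, fell by 0.84 ± 0.12, from 815 and 563 in VC to 430 and 334 in MXD. The ligand and its receptor were thus both called lower, and neither was called in another comparison. Ccl19, which shares the receptor Ccr7 with Ccl21a, fell by 0.86 ± 0.38 and 0.82 ± 0.26.

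Other receptors had values of the same sign without being called. Ccr2, the receptor of Ccl2, Ccl7 and Ccl12, had a log2 fold of -0.72 ± 0.40. Cxcr3, the receptor of Cxcl9 and Cxcl10, had -0.70 ± 0.18. Each passed the P limit on only 1 of the 2 arrays.

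Cxcl14 was the exception in MXD 2W. This ligand is abundant in epithelium, and its probe A_51_P209183 read 66000 and 52183 in MXD against 29522 and 29299 in VC, a log2 fold of 1.00 ± 0.23. Both MXD values lay above both VC values. Ccl28, an epithelial ligand of Ccr10, and Cxcr4, the receptor of Cxcl12, had means of 0.97 ± 0.74 and 0.84 ± 0.60 and were not called, since the 2 arrays differed (1.49 and 0.45 for Ccl28, 1.27 and 0.41 for Cxcr4).

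**Figure D3:**
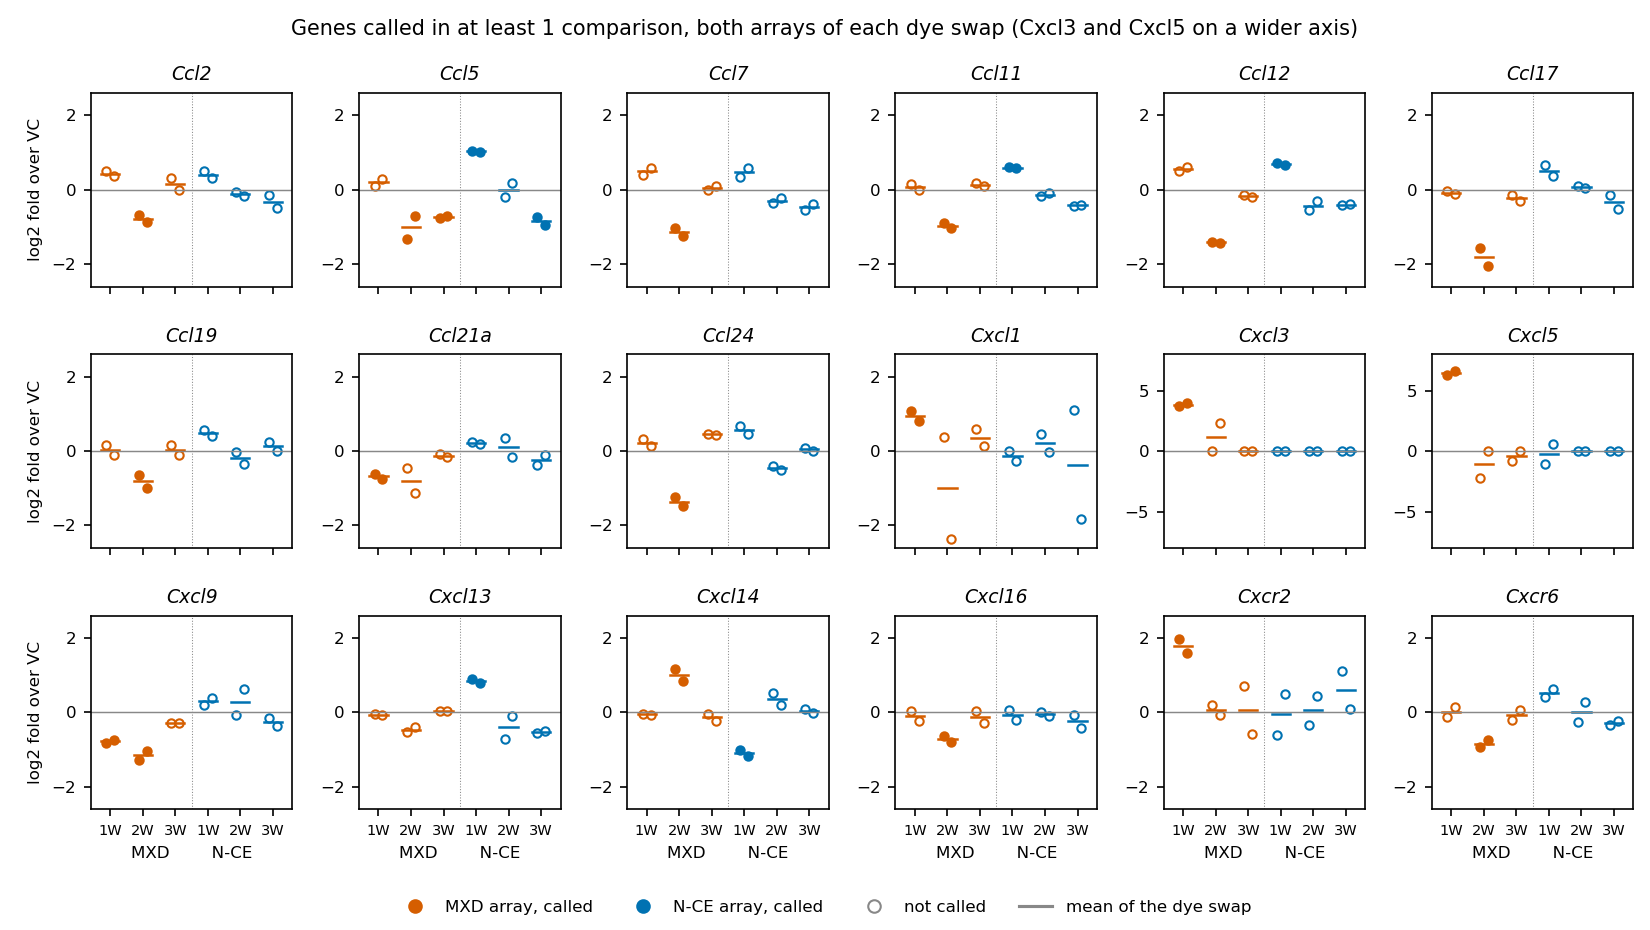
Log2 fold over VC on each of the 2 arrays of every comparison (circles, filled where the gene was called) with their mean (bar) for the 18 genes called at least once, each by its brightest probe; Cxcl3 and Cxcl5 have a wider axis. Circles at exactly 0 for Cxcl3 and Cxcl5 are spots where neither channel exceeded background. Of the 18 genes, 11 were called lower at MXD 2W, whereas Cxcl14 was called higher there and lower at N-CE 1W.

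Immune markers and hair follicle markers moved beside these ligands in MXD 2W. All 15 measured monocyte and macrophage markers had a log2 fold below 0 (median -0.79, 9 called lower), and their summed signal was 166693 and 111644 in MXD against 287822 and 217362 in VC. Of 16 measured T cell and NK cell markers, 14 lay below 0 (median -0.96), 6 were called lower and Cd4 was called higher, and Ncr1 was not above background. Of 11 dendritic and Langerhans cell markers, 4 were called lower (median -0.73). Markers called lower in other skin compartments numbered 12 of 12 for skeletal muscle (median -1.46), 4 of 8 for dermal fibroblasts (-0.84) and 5 of 9 for endothelium (-0.64). The epidermis list had 3 genes above and 4 below 0 (median -0.05), with 1 called higher and 3 lower, and the neutrophil list had 2 called higher and 1 lower (median -0.35). After normexp and loess the medians were -0.56 for the ligand genes, -0.76 for the monocyte and macrophage list and -0.28 for the T cell and NK cell list. In contrast, 12 of 12 markers of the growing hair follicle were called higher (median 1.28), with a summed signal of 946503 and 845451 in MXD against 340832 and 398695 in VC. The part of these cell types in the chemokine values was not tested.

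By 3W few members passed the rule in MXD. Both Ccl5 probes were called lower and nothing was called higher, against 0.161% and 0.144% of all probes. The brighter Ccl5 probe read 166 and 179 in MXD against 279 and 293 in VC (log2 fold -0.73 ± 0.03), and the other probe had -0.86 ± 0.12. The medians were 0.03 over 25 measured ligand genes and -0.18 over 9 measured receptor genes. Ccl20, the ligand of Ccr6, had the highest value among genes above background in both pools, 0.58 ± 0.11, and was not called.

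In the N-CE comparison at 1W, both Ccl5 probes, Cxcl13, Ccl12 and Ccl11 were called higher (5 probes, 7.94% of the 63, where 0.292% of all probes were), and Cxcl14 was called lower (1.59%, where 1.49% of all probes were). The share lower is thus close to that of the array as a whole. No receptor was called.

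Ccl5 read 722 and 702 in the N-CE pool against 348 and 349 in VC on its brighter probe, a log2 fold of 1.03 ± 0.03. Its other probe read 508 and 568 against 242 and 254, a log2 fold of 1.11 ± 0.06. On both probes and both arrays every N-CE value lay above every VC value. Cxcl13, which draws B cells through Cxcr5, read 385 and 410 against 209 and 236, a log2 fold of 0.84 ± 0.06. Ccl12 read 825 and 741 against 501 and 470 (0.69 ± 0.04), and Ccl11 read 1127 and 1193 against 737 and 799 (0.59 ± 0.02). In MXD at 1W, Ccl12 had 0.56 ± 0.08, just short of the limits, and whether the 2 treatments differ was not tested within the week. After normexp and loess, Cxcl13, Ccl12 and Ccl11 had log2 folds of 0.57, 0.58 and 0.50 and were no longer past the fold limit.

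Of 10 measured inflammatory CC ligands, 9 had a log2 fold above 0 in N-CE 1W (median 0.48, where 52.9% of all measured probes lay above 0 and their median was 0.02). Ccl4, at -0.17, was the member below 0. The receptor genes lay on the same side, with 7 of 9 above 0 and a median of 0.31, and Cxcr6 at 0.53 ± 0.15 was above 0 without being called. The Ccr3 mean of 1.85 ± 1.66 rests on 1 array on which N-CE alone was above background. All 15 monocyte and macrophage markers lay above 0 with a median of 0.27 and none called, and 12 of 15 measured T cell and NK cell markers lay above 0 with a median of 0.42 and none called. Of 11 measured neutrophil markers, 10 lay above 0 and 3 were called higher (median 0.28), with a summed signal of 21250 and 22406 in N-CE against 15601 and 16304 in VC. Their part in the chemokine values was not tested.

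Cxcl14 read 8464 and 7913 in N-CE against 16982 and 17951 in VC at 1W, a log2 fold of -1.09 ± 0.13. At the same time 12 of 12 growing hair follicle markers were called lower (median -2.71), with a summed signal of 52672 and 39835 in N-CE against 345956 and 298065 in VC. In both comparisons in which Cxcl14 was called, all 12 measured follicle markers were called in the direction of Cxcl14. In the other 4 comparisons the log2 fold of Cxcl14 lay between -0.13 and 0.35, and the follicle list had 2 genes called higher in MXD 1W and none called in the rest. In MXD 1W all 12 follicle markers lay above 0 (median 0.50), while Cxcl14 was at -0.05. The part of follicle growth in the Cxcl14 values was not tested.

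At 2W no member was called in N-CE in either direction, where 0.0682% of all probes were called higher and 0.0511% lower. Without the P limit, 1 probe was past the higher fold and 7 were past the lower one, where 2.33% and 5.58% of all probes were. The medians were -0.00 over 26 ligand genes and -0.03 over 9 receptor genes. Among genes above background in both pools, Cxcl10 had the highest value, 0.63 ± 0.21, and Ccl24 the lowest, -0.46 ± 0.06. Of 11 inflammatory CC ligands 1 lay above 0 (Ccl4, 0.32 ± 0.42), and all 15 monocyte and macrophage markers lay below 0 with a median of -0.27.

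At 3W Ccl5 was the only member called in the N-CE pool. Both probes were called lower (3.17% of the 63, where 0.139% of all probes were), and none was called higher, where 0.151% of all probes were. The brighter probe read 179 and 192 in N-CE against 297 and 371 in VC, a log2 fold of -0.84 ± 0.16, and the other had -0.79 ± 0.05. After normexp and loess these became -0.55 and -0.40, and only the first stayed past the limit. Cxcl13 had -0.53 ± 0.02 and was not called. The median was -0.24 over 26 ligand genes and -0.19 over 9 receptor genes.

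Ccl5 was the member called most often. It was called in 4 of the 6 comparisons, higher in N-CE 1W and lower in MXD 2W, MXD 3W and N-CE 3W. At 3W the values were alike in both treatments, -0.73 ± 0.03 in MXD and -0.84 ± 0.16 in N-CE on the brighter probe, but both were set against 1 VC pool, so they are not independent of each other. The VC level of that probe was also compared, as log2 level after normalization between arrays over the 4 VC channels of a week. It spanned 8.13 to 8.33 in the first week. In the second week it was lower, spanning 7.47 to 7.83, and in the third it spanned 8.02 to 8.23.

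The 5 genes called in 2 or more comparisons were Ccl5, Ccl11, Ccl12, Cxcl9 and Cxcl14. The matching share over all genes of the array was not taken. Ccl11 and Ccl12 were higher in N-CE 1W and lower in MXD 2W, and Cxcl14 was the reverse. Ccl5 at 3W was the only member called in both treatments in the same week, and it was lower in both. At 1W, Cxcl9 had -0.78 in MXD and 0.29 in N-CE, Ccl5 had 0.20 and 1.03, and Cxcl14 had -0.05 and -1.09. At 2W, Ccl24 had -1.37 in MXD and -0.46 in N-CE, and Ccl17 had -1.81 and 0.08.

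**Figure D4:**
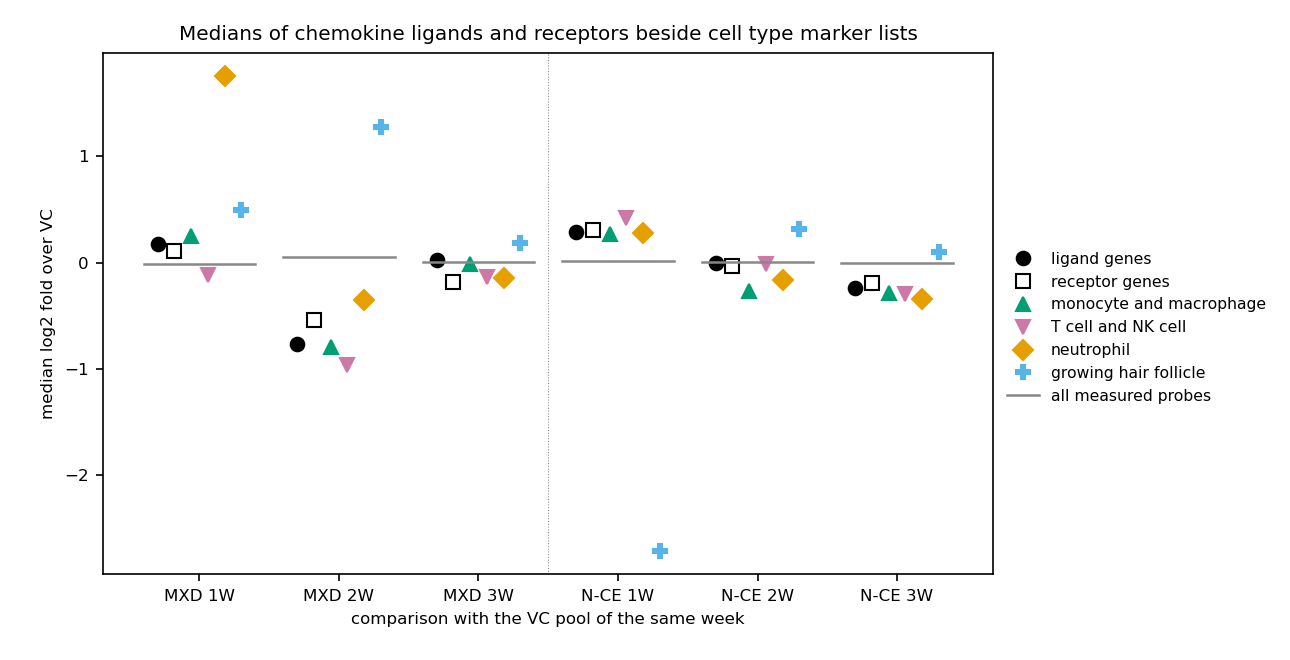
Median log2 fold over VC of the measured chemokine ligand genes (filled circles) and receptor genes (open squares) in the 6 comparisons, beside 4 cell type marker lists and the median of all measured probes (grey bar). Ligands sit at -0.76 in MXD 2W, beside the monocyte and macrophage list at -0.79 and the T cell and NK cell list at -0.96 (after normexp and loess -0.56, -0.76 and -0.28), while the growing hair follicle list sits at 1.28 there and at -2.71 in N-CE 1W.

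Neighbouring genes shared a sign in some comparisons only. The Ccl5 cluster on chromosome 11 (Ccl5, Ccl9, Ccl6, Ccl3 and Ccl4, chr11:83339296-83478111 of mm9) had 5 of 5 above 0 in MXD 1W, where 48.3% of all measured probes were, and 4 of 4 measured genes below 0 in MXD 2W, where 45.5% of all were. In the other 4 comparisons its genes had mixed signs, and the Ccl2 cluster had mixed signs in all 5 comparisons other than MXD 2W. The ELR cluster on chromosome 5 (Cxcl5, Cxcl3, Cxcl15, Cxcl1 and Cxcl2, chr5:91190205-91334593) had 3 measured genes in MXD 1W, all 3 called higher, and 1 measured gene in each N-CE week.

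Genes that act with the chemokines were listed apart. A first list held other chemokines, their receptors and related genes, and atypical receptors, which bind ligands without G-protein signalling. Of its 16 measured genes, 9 were called lower in MXD 2W (median -0.88), where 5.82% of all probes were, and none higher. They included the scavenging receptor Ackr2 (-1.63 ± 0.61), the Cxcl12 scavenger Ackr3 (-0.92 ± 0.06), the T cell ligand Xcl1 (-1.41 ± 0.23) and Rarres2, the precursor of chemerin (-1.15 ± 0.00). In MXD 1W the platelet and neutrophil ligand Ppbp was called higher (1.27 ± 0.02). Of 16 measured inducing cytokines and NF-kappaB genes, 5 were called lower in MXD 2W (median -0.53), among them Il1a (-0.92 ± 0.13) and Il1f9, the gene of interleukin-36 gamma (-1.63 ± 0.07), and Il1f6 was called higher in MXD 1W (0.89 ± 0.22). Of the genes for receptor signalling and ligand processing, Rgs1, which dampens chemokine receptor signals, was called lower in MXD 2W (-1.23 ± 0.19) and higher in N-CE 1W (0.76 ± 0.11), and Arrb1, a beta-arrestin, lower in MXD 2W (-0.70 ± 0.02).

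Since no week has a second pool, a test was possible only over the 3 weeks, with weeks in the place of replicates. By limma with Benjamini-Hochberg adjustment, 0 of 41068 probes passed 0.05 in MXD, 0 of 40895 in N-CE and 0 of 40820 in the difference N-CE minus MXD. At an unadjusted p under 0.05 there were 3098, 1490 and 2021 probes, of which 4, 1 and 4 were members. The member with the lowest p was Ccr4, the receptor of Ccl17, in MXD, with weekly log2 folds of -0.46, -0.55 and -0.53 and an adjusted p of 0.626 in limma. That is its brighter probe, which was above background in only 17 of 24 channels. The other Ccr4 probe had a mean of -0.40 over the weeks and an unadjusted limma p of 0.138. The test asks for a shift common to all weeks, and the MXD medians of the ligand genes were 0.17, -0.76 and 0.03.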

How the data were processed

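RNA of pooled back skin was labelled with Cy3 and Cy5 and hybridized to Agilent arrays by the authors. Per the file headers, Agilent Feature Extraction 12.0.3.1 (the labels name 11.0.1.1) made the deposited values: a log10 ratio of the red (Cy5) to the green (Cy3) signal, with background subtracted and dyes normalized, the p-value of each log ratio from its error model, and processed signal intensities. Probe coordinates are mm9. Control spots and outlier spots were left out, every ratio was expressed as treatment relative to VC, and repeated spots of 1 probe were averaged. Calls used the rule stated in the text. Of 43379 transcript spots per array, 57.0% to 65.0% were well above background in Cy3 and 61.3% to 69.6% in Cy5. The 12 arrays hold no second pool, and this number limits the precision.

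Tests over weeks used limma 3.58.1 in R 4.3.3 and other steps Python 3.11.15 with pandas 2.3.3. The calling rule and the fits were also run on simulated data. Those were drawn from the spot errors or the spread between weeks of these arrays, and cannot show the spread between mice. Lower bounds used channels after normexp (offset 50), loess and quantile normalization of averages (Aquantile). Members and gene lists were chosen with earlier results of these data known. Named were all called members and up to 4 called genes per list. Of the 3 highest and 3 lowest genes above background in both pools of a comparison, only a part is given. The same holds for their ligands and receptors. The deposited value table equalled the ratio of processed signals and served as an alternative. Proteins and genome sequence were not used here. A member gene counted in the totals is not reported here.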

Additional observations from a re-analysis of the deposited data

Results flagged for a closer look

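Ccl5 moved in opposite directions on all arrays of 2 N-CE weeks. Its log2 fold on the brighter probe was 1.03 in N-CE 1W and -0.84 in N-CE 3W. The difference was not tested, as each week holds 1 pool per group.

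The median log2 fold of the ligand genes changed sign between weeks on all arrays concerned. For MXD the 1W median of 0.17 was followed by -0.76 in the 2W pool. For N-CE the 1W median of 0.29 was followed by -0.00339 in the 2W pool, with array medians of -0.01 and -0.06, and by -0.24 in the 3W pool. The median of the receptor genes also had opposite signs on all arrays concerned, with 0.11 in MXD 1W against -0.54 in MXD 2W and -0.18 in MXD 3W, and with 0.31 in N-CE 1W against -0.19 in N-CE 3W. None of these differences was tested, and in each case week, slide and VC pool changed together.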

How the results depend on the processing

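Each count rests on 2 arrays of 1 pair of pools, so no setting tells how mice differ. With normexp and loess the member probes called numbered 2 higher in MXD 1W, 2 higher in N-CE 1W and 1 lower in N-CE 3W. These losses were Cxcl1, Cxcr2, Cxcl13, Ccl12, Ccl11 and 1 probe of Ccl5, and 26 of the 32 called values stayed called. The P values of the scanner software were kept in that setting, so only the fold limit was judged anew. Under that setting 0.396% of all probes were called higher in MXD 1W, 0.112% higher in N-CE 1W and 0.117% lower in N-CE 3W. Without the P limit the counts higher and lower were 9 and 7 in MXD 1W, 6 and 37 in MXD 2W, 1 and 5 in MXD 3W, 11 and 5 in N-CE 1W, 1 and 7 in N-CE 2W, and 3 and 11 in N-CE 3W. Judged by fold alone, 4.69% (MXD 1W), 10.9% (MXD 2W) and 2.17% (MXD 3W) of all probes were past the higher limit. The N-CE shares past it ran 4.13%, 2.33% and 2.98% from 1W to 3W. Past the lower limit lay 9.02% of the array in MXD 1W, 17.9% a week later and 4.77% by 3W. For N-CE these lower shares were, week by week, 9.39%, 5.58% and 5.84%. Asking for signal above background in both pools left 1 higher in MXD 1W, Cxcl1, where 0.641% of all probes were called. With 1 array left out, the counts higher ranged from 4 to 11 in MXD 1W, 1 to 5 in MXD 2W, 0 to 1 in MXD 3W, 9 to 9 in N-CE 1W, 1 to 2 in N-CE 2W and 0 to 1 in N-CE 3W. Of all probes, 1.63% to 1.86% were called higher in MXD 1W, 7.43% to 8.80% in MXD 2W and 0.359% to 0.430% in MXD 3W. In N-CE the shares were 1.27% to 1.29% at 1W, 0.811% to 1.13% at 2W and 0.704% to 0.777% at 3W. The counts lower ranged from 20 to 25 in MXD 2W and from 1 to 2 in N-CE 2W. Of all probes, 9.25% to 10.1% and 0.962% to 1.45% were called lower there. Each of these counts needs a P on 1 array only. Symmetric folds and the deposited value table left every count within 1.5 times. Keeping outlier spots changed none of them, and the limma counts stayed 0 under every setting, since no probe of the array passed. Counting each median once under each setting, 19 values moved by more than the spread between the 2 arrays. The ligand median of MXD 3W, 0.03, became -0.02 with normexp and loess and -0.05 without replicate 1, and the receptor median of N-CE 2W, -0.03, became 0.13 without replicate 1. The receptor median of MXD 2W, -0.54, became -0.29 with normexp and loess. The cause of the normexp changes was not tested. Within a comparison no paired analysis was possible, because its arrays are a dye swap of 1 pair of pools and the replicate numbers only order them. Between treatments, the limma difference N-CE minus MXD was taken within each week.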

Other observations

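Some ligands were measured without a receptor partner. Ccr1, Ccr1l1, Ccr8, Ccr10, Cxcr1, Cxcr5, Cxcl11 and Cxcl17 were the 8 genes not well above background in any of the 24 channels by their brightest probe. Among them are Cxcr5, the receptor of Cxcl13, which was called higher in N-CE 1W, and Ccr10, the receptor of Ccl28 and of Ccl27a. Ccr7, the receptor of Ccl19 and Ccl21a, was above background in 1 of 24 channels, whereas both ligands were above it in all 24. A probe below background gives only a bound on its transcript.

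The VC readings of some members differed between weeks. Of 28 member genes above background in every VC channel, 15 had a week whose 4 VC values (log2 level after normalization between arrays) did not overlap either other week, and 3 of them, chosen after their values were seen, are given here. The matching share over all probes was not taken, so the count does not set the members apart from the rest of the array. Cxcl9 spanned 9.83 to 9.94 in the first week, 8.17 to 8.80 in the second and 8.45 to 8.98 in the third. Cxcl10 spanned 8.92 to 9.18, then 7.91 to 8.14, then 7.94 to 8.23. Both interferon-induced ligands were thus highest in VC in the first week with no overlap with the later ones. Cxcl14 was instead highest in the third week, with 13.52 to 13.74, 13.49 to 13.95 and 14.20 to 14.43. Week and slide cannot be told apart here, and these differences were not tested.

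Of 8 measured mast cell markers, Cpa3 (-0.84 ± 0.19) and Cma1 (-0.91 ± 0.04), proteases of mast cell granules, were called lower in MXD 2W, while Kit, the stem cell factor receptor, was called higher (1.18 ± 0.53). The median of the list was -0.52 there. No B cell marker was called in any comparison.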
